A study of Mus musculus with 10 samples.

Results

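The genes described here are 34 genes known to be switched on by glucocorticoids, followed in the hypothalamus of mice carrying a colon tumour and of mice without one. They were named as a list of symbols and found on the array through probe sets paired with exactly 1 of these symbols, the brightest standing for a gene with several. Of the 34 genes, 33 had such a probe set, among 18820 named genes in all, and Arl4d, a small GTPase gene, had none. Of these 33, 31 passed the filter on low values, among 12978 named genes tested, and Cebpd and Edn1 did not.

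All mice were male CDF1 mice, a cross of BALB/c and DBA/2, aged 10 to 11 weeks. Tumour-bearing mice had received 1000000 cells of C26, a transplantable colon adenocarcinoma line used as a model of cancer cachexia, under the skin in 0.2 ml of Hank's balanced salt solution. Control mice received the same volume without cells, and in both groups the hypothalamus was taken on day 20. There were 5 tumour-bearing and 3 control mice on single arrays, 1 array of RNA pooled from 5 tumour-bearing mice and 1 of RNA pooled from 4 control mice; whether mice on single arrays also went into a pool is not stated. All values are log2 RMA levels or differences between such levels, and the number of arrays limits their precision.

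Glucocorticoids, corticosterone in mice, are released by the adrenal gland at the end of a hormonal chain that starts with corticotropin-releasing hormone in the hypothalamus. They cross into the cell and bind the glucocorticoid receptor, which moves to the nucleus and binds DNA as a pair at palindromic response elements, or acts through other factors. Among the genes it raises are its own brakes, genes that turn cells from growth to saving energy, and genes of fat and sugar use. In the brain, neurons, glia and vessel cells all carry the receptor.

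Promoter sequences are shown for 5 members whose promoter held a motif that was searched for, since a shared hormone is what links the list. They are both carriers of the response element or its core, both half-site carriers with an unadjusted p under 0.05, and Dusp1 for the cAMP response element. This choice was made with the values known, and Bcl6, Arl4d and Errfi1, which also held a motif, are named only. RefSeq promoters of GRCm38.p6, from 250 bases before to 50 bases after the gene start, were matched by symbol for 28 of the 34 members, with 39 promoters because some genes have several. Both strands were searched for the full glucocorticoid response element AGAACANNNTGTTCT, its looser core GNACANNNTGTNC and the cAMP response element TGACGTCA. They were also searched for the half-site AGAACA, which is 1 arm of the full element. The full element and core are each an arm, any 3 bases (N) and the arm reversed and complemented. A full element also counts as a core and as half-sites. In capitals below are the response element, core or half-sites, and in Dusp1 the cAMP response element. The sequences run 5′ to 3′ on the strand of the gene.
Sgk1, chr10:21993640-21993939, + strand: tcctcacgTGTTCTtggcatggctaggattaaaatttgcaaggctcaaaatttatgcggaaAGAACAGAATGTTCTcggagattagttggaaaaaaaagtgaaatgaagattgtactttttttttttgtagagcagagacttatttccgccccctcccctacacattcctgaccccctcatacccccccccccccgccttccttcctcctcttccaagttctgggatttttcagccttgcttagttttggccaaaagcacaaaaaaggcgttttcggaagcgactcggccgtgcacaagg
Map3k6, chr4:133240568-133240867, + strand: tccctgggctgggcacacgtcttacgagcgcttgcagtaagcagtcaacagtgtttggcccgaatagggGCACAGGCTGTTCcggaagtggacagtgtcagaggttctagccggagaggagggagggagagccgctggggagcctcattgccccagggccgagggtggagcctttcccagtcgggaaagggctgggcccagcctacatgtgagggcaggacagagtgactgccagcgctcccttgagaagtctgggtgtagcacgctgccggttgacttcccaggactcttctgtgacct
Sult1a1, chr7:126676369-126676668, - strand: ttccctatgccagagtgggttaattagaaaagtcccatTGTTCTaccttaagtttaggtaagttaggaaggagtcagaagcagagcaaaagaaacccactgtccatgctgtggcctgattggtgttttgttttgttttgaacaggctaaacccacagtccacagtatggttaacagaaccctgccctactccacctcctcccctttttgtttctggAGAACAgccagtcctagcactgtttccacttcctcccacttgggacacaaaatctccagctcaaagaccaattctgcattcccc
Tsc22d3, chrX:140600473-140600772, - strand: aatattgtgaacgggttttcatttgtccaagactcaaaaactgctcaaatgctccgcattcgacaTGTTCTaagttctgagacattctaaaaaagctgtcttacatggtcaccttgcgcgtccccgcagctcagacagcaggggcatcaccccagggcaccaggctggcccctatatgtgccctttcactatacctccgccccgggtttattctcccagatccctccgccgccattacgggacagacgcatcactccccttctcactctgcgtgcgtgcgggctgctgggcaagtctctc
Dusp1, chr17:26508423-26508722, - strand: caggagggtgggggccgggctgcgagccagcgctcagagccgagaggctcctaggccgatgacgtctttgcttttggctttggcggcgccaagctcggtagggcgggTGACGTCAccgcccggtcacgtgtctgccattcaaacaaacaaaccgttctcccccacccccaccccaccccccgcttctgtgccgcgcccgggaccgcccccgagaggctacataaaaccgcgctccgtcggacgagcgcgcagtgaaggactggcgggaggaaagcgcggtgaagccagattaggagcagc

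The full element lay in 1 member, Sgk1, in the promoter shown, starting at -189 relative to that gene start; 3 of all 32851 promoters (0.00913%) held it. The core lay in Sgk1 and Map3k6, which are 2 of the 39 member promoters (5.13%), against 0.475% of all promoters. Half-sites were in promoters of Bcl6, Sgk1, Sult1a1 and Tsc22d3, 15.4% of member promoters against 19.0% of all. The cAMP response element was in Arl4d, Dusp1 and Errfi1, 7.69% of member promoters against 1.79% of all. These are matches of letters within a window of 300 bases and say nothing of binding in these samples or of elements elsewhere.

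The individual arrays had medians of 5.30 to 5.32 and pairwise correlations of 0.980 to 0.989 over the tested probe sets. All 10 hypothalamic markers used to check the tissue passed the filter, among them Avp, Oxt, Trh and Npy. They were also higher in tumour-bearing mice by about as much as the glucocorticoid-induced genes: 9 of 10 had a difference above 0 and 6 an unadjusted limma p under 0.05, with a median difference of 0.26 and 0 called. Of all genes tested, 45.5% had a difference above 0, and 3.78% were higher and 6.51% lower at that unadjusted p. The summed level of the hypothalamic markers on the linear scale was 5980 to 7904 in tumour-bearing and 5490 to 6036 in control mice. These sums overlapped, but the mean log2 levels, each gene centred on its mean over the 8 individual arrays, did not. The latter were -0.11 to 0.30 in tumour-bearing and -0.25 to -0.15 in control mice. Marker sums of other cells differed between the groups too. The summed level of 7 oligodendrocyte markers with a probe set, of 9 listed, was 3659 to 5251 in tumour-bearing and 5199 to 5496 in control mice. For 7 of 7 midbrain markers it was 744 to 2059 in tumour-bearing and 2148 to 2654 in control mice. The mean centred log2 levels of the midbrain markers overlapped, at -0.88 to 0.21 in tumour-bearing and 0.048 to 1.02 in control mice. Sums of 6 of 6 anterior pituitary markers were 184 to 1908 in tumour-bearing and 133 to 285 in control mice. Tumour-bearing mice 3 and 4 and the tumour-bearing pool were high. Tshb was below the filter level of 4.32 on all 8 individual arrays. The sums did not overlap for pericyte markers (6 of 6), at 975 to 1335 in tumour-bearing and 1338 to 1645 in control mice. Their mean log2 levels, each gene centred on its mean over the 8 individual arrays, did overlap. These were -0.29 to 0.03 in tumour-bearing and -0.045 to 0.26 in control mice. Of the 6 pericyte genes, 5 had a difference below 0 and Kcnj8 one of 0.17. Rgs5 had the largest, at -0.39, and lay below all controls in all 5 tumour-bearing mice. The sums of neuron markers (6 of 7) did not overlap either, at 13670 to 14090 in tumour-bearing and 14100 to 15060 in control mice. The mean centred log2 levels of these markers overlapped, at -0.038 to 0.0006 in tumour-bearing and -0.031 to 0.089 in control mice. Of the 6, 4 had a difference below 0 and 2 above, among them Rbfox3 at 0.13. The sums overlapped for astrocyte markers (7 of 7), at 5087 to 5490 in tumour-bearing and 5398 to 5702 in control mice. Those of microglial markers (6 of 7) also overlapped, at 432 to 543 in tumour-bearing and 517 to 563 in control mice. Sums of endothelial markers (7 of 7) were 1048 to 1247 in tumour-bearing and 986 to 1258 in control mice, and those of choroid plexus markers (5 of 5) were 291 to 415 in tumour-bearing and 324 to 412 in control mice. Where a gene differed, fewer cells of a type and less RNA per cell cannot be told apart in such tissue.

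Most of the glucocorticoid-induced genes were higher in tumour-bearing mice, by small amounts, and none passed the test across all genes. The difference was above 0 for 28 of the 31 tested members, against 45.5% of all genes tested, and the median difference was 0.24 on the log2 scale, against -0.01 over all genes. The threshold of an adjusted p of 0.05 (limma, Benjamini-Hochberg over all tested probe sets) was passed by 0 members in either direction; 0.0771% of all genes were called higher and 0% lower. At an unadjusted limma p under 0.05 there were 14 members higher and 0 lower, against 3.78% of all genes higher, 6.51% lower and 10.3% in either direction. The same shares of all genes stand beside the counts by group of members below. For 12 members the lowest of the 5 tumour-bearing mice was higher than the highest of the 3 controls, against 3.11% of all genes, and the reverse held for 0 members, against 5.19%. Earlier results of these data were known when the members were listed, so these counts are descriptions of the list.

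**Figure D1:**
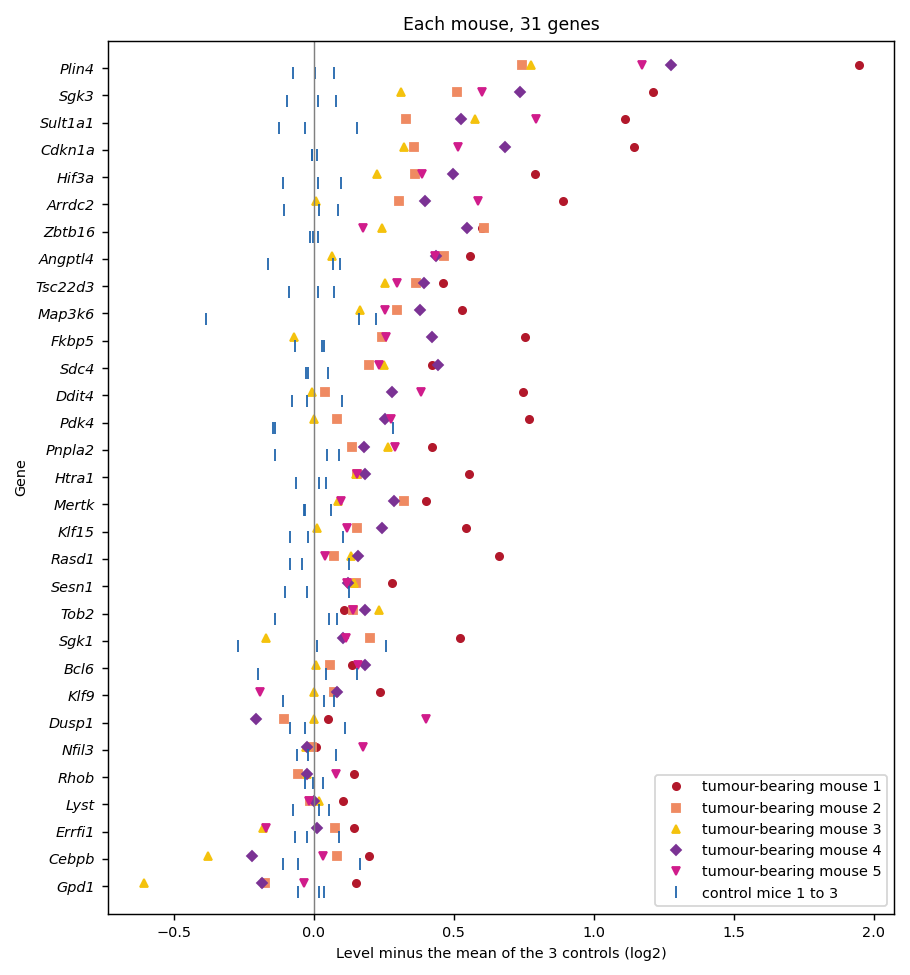
Levels of the 31 tested genes in each mouse minus the mean of the 3 controls (log2, x axis), with genes ordered by their mean difference down the page; coloured symbols are the 5 tumour-bearing mice and blue ticks the 3 control mice. From Plin4 (1.18) the differences grade down to Gpd1 (-0.17), and tumour-bearing mouse 1 is the rightmost symbol of its group in 25 of the 31 genes.

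Of the 5 members that act back on hormone and growth factor signals, 4 had a difference above 0 and 1 had an unadjusted p under 0.05. That gene was Tsc22d3, also called GILZ, which restrains inflammatory transcription factors. Tsc22d3 had levels of 7.99, 7.89, 7.78, 7.92 and 7.82 in the 5 tumour-bearing mice, against 7.54, 7.44 and 7.60 in the 3 controls. Its lowest tumour-bearing mouse was above its highest control, and the spread was the same in both groups. The difference was 0.36 ± 0.06 SE, or 1.28-fold (limma adjusted p = 0.116), the lowest adjusted p of the members. It passed the threshold with the test limited to probe sets of 1 gene (limma adjusted p = 0.0271), and its adjusted p spanned 0.0271 to 0.9995 over the alternatives. That limited test called 39 of the 12978 genes tested higher and 29 lower, against 10 and 0 in the main test.

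Fkbp5, a co-chaperone that lowers the affinity of the receptor for its hormone and is often used as a readout of receptor activity, had levels of 8.08, 7.57, 7.25, 7.75 and 7.58 in tumour-bearing mice, against 7.36, 7.26 and 7.35 in controls. Mouse 1 stood highest and mouse 3 lay just below every control, so the groups overlapped. The difference was 0.32 ± 0.15 SE (limma adjusted p = 0.496), and 0.21 without tumour-bearing mouse 1. Rasd1, a Ras-like protein first found as induced by dexamethasone, differed by 0.21, and by 0.10 without tumour-bearing mouse 1. Dusp1, a phosphatase that switches off MAP kinases, had levels of 8.33, 8.17, 8.28, 8.07 and 8.68 in tumour-bearing mice, against 8.25, 8.19 and 8.39 in controls. Mouse 5 lay above and mice 2 and 4 below all controls, and the difference was 0.03 ± 0.12 SE, below 0 without tumour-bearing mouse 5 (-0.065) or control 2 (-0.014). Errfi1, which inhibits the EGF receptor, differed by -0.02.

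Of the kinase and growth-control members all 8 had a difference above 0, with a median of 0.28, and 3 had an unadjusted p under 0.05 (Sgk3, Cdkn1a and Sesn1). Sgk3, a kinase of the serum and glucocorticoid regulated family, had levels of 8.02, 7.32, 7.12, 7.55 and 7.41 in tumour-bearing mice, against 6.89, 6.83 and 6.71 in controls. Every tumour-bearing mouse was higher than every control, and the difference was 0.67 ± 0.17 SE, or 1.60-fold (limma adjusted p = 0.261). Cdkn1a, the cell cycle inhibitor p21, had levels of 8.98, 8.20, 8.16, 8.52 and 8.35 in tumour-bearing mice, against 7.83, 7.83 and 7.85 in controls. The controls were nearly equal and the tumour-bearing mice were spread over a wide range above them. Its difference was 0.60 ± 0.16 SE, or 1.52-fold (limma adjusted p = 0.277).

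Sesn1, a sestrin that restrains the growth kinase mTORC1, had levels of 8.29, 8.17, 8.16, 8.14 and 8.13 in tumour-bearing mice, against 7.99, 7.91 and 8.14 in controls. Control 3 lay among the tumour-bearing mice. The difference was 0.16 ± 0.06 SE, and the pools were equal at 8.10. Sgk1, the founding member of its kinase family and the carrier of the full response element shown above, had levels of 8.72, 8.40, 8.03, 8.30 and 8.31 in tumour-bearing mice, against 8.45, 8.21 and 7.92 in controls. The controls alone covered most of the range of the tumour-bearing mice. The difference was 0.16 ± 0.15 SE (limma adjusted p = 0.776), and it moved between 0.020 without control 3 and 0.28 without control 1. Leaving out tumour-bearing mouse 1 gave 0.063, leaving out mouse 3 of that group gave 0.24, and the oligodendrocyte covariate gave 0.31. Ddit4, which inhibits mTORC1, differed by 0.29, Pdk4, which holds back glucose oxidation, by 0.28, Map3k6, a stress kinase gene, by 0.32, and Tob2, an antiproliferative protein gene, by 0.16. Of these 4, Pdk4 was 0.15 without tumour-bearing mouse 1 and 0.42 without control 1, Map3k6 was 0.13 without control 1, and Ddit4 was 0.17 without tumour-bearing mouse 1. Tob2 was above all controls in 5 of 5 tumour-bearing mice although it did not reach an unadjusted p of 0.05, and was 0.092 without control 1.

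Among the 5 members grouped under fat and energy metabolism, 4 had an unadjusted limma p under 0.05, with a median difference of 0.39. This group includes Sult1a1, a sulfotransferase, while Pdk4, which holds back glucose oxidation, was counted with the kinases. The count therefore depends on the grouping. Plin4, a coat protein of lipid droplets, had levels of 7.31, 6.11, 6.14, 6.64 and 6.54 in tumour-bearing mice, against 5.29, 5.37 and 5.44 in controls. All tumour-bearing mice were clearly above the narrow range of the controls, mouse 1 most of all. The difference was 1.18 ± 0.24 SE, or 2.27-fold, the largest of the members (limma adjusted p = 0.191), and it ranged from 0.99 to 1.29 with any 1 mouse left out. Plin4 passed the threshold in the same limited test (limma adjusted p = 0.0319), and its adjusted p spanned 0.0319 to 0.9995 over the alternatives. In the pools it was 6.81 in the tumour-bearing and 5.57 in the control pool.

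Sult1a1, a sulfotransferase of phenols and catecholamines, had levels of 6.69, 5.91, 6.15, 6.10 and 6.37 in tumour-bearing mice, against 5.73, 5.45 and 5.55 in controls. The groups did not overlap, and the difference was 0.67 ± 0.16 SE, or 1.59-fold (limma adjusted p = 0.249). Pnpla2, the lipase that starts the breakdown of stored fat, had levels of 7.93, 7.64, 7.77, 7.69 and 7.79 in tumour-bearing mice, against 7.37, 7.55 and 7.60 in controls. Here the lowest tumour-bearing mouse was only just above the highest control, with a difference of 0.26 ± 0.08 SE. Angptl4, a secreted inhibitor of lipoprotein lipase, had levels of 5.56, 5.46, 5.06, 5.43 and 5.43 in tumour-bearing mice, against 4.83, 5.09 and 5.07 in controls. Mouse 3 lay within the controls and the other 4 above them, and the difference was 0.39 ± 0.13 SE. Gpd1, a cytosolic enzyme between sugar and glycerol lipids, was lower on average: it differed by -0.17 ± 0.14 SE, with 3 tumour-bearing mice below all controls and mouse 1 above them, by -0.061 without tumour-bearing mouse 3 and by 0.066 with the midbrain covariate.

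Among the transcription factors 2 of 7 tested members had an unadjusted p under 0.05. Zbtb16, also called PLZF, had levels of 8.39, 8.40, 8.03, 8.34 and 7.97 in tumour-bearing mice, against 7.79, 7.78 and 7.81 in controls. The tumour-bearing mice fell into a pair near 8.0 and 3 mice near 8.4, all above the nearly equal controls. The difference was 0.43 ± 0.11 SE, or 1.35-fold (limma adjusted p = 0.249). Hif3a, a member of the hypoxia-inducible factor family that can oppose the others, had levels of 6.61, 6.18, 6.05, 6.32 and 6.21 in tumour-bearing mice, against 5.71, 5.84 and 5.92 in controls. No tumour-bearing mouse reached down to the controls, and the difference was 0.45 ± 0.12 SE, or 1.37-fold (limma adjusted p = 0.281).

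The Krüppel-like factors are induced by glucocorticoids in many tissues. Klf9 had levels of 8.73, 8.56, 8.49, 8.58 and 8.30 in tumour-bearing mice, against 8.53, 8.56 and 8.38 in controls. The groups overlapped, and the difference was 0.04 ± 0.09 SE, on either side of 0 with 1 mouse left out (-0.015 without control 3 and 0.098 without tumour-bearing mouse 5). It was 0.10 with the replicate block and 0.21 with the oligodendrocyte covariate. Klf15 differed by 0.21, by 0.13 without tumour-bearing mouse 1 and by 0.33 with the midbrain covariate. Bcl6, a repressor, differed by 0.11, by 0.0092 without control 1, by 0.19 without control 3 and by 0.26 with the midbrain covariate. Nfil3, a repressor also known from the clock and from immune cells, differed by 0.03 and Cebpb by -0.06. Cebpd, which did not pass the filter, lay above 4.32 on tumour-bearing mouse 1 alone; its levels were 4.37, 4.14, 4.31, 3.64 and 4.29 in tumour-bearing mice, against 3.81, 3.72 and 3.66 in controls, and with no fold to give at such levels only the order can be stated, 4 tumour-bearing mice above all controls and 1 below.

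The surface, secreted and trafficking members differed by 0.02 to 0.44, and 4 of the 6 tested had an unadjusted p under 0.05. Sdc4, a heparan sulfate proteoglycan, had levels of 8.41, 8.19, 8.24, 8.44 and 8.23 in tumour-bearing mice, against 8.04, 7.96 and 7.97 in controls. Mice 1 and 4 were highest and the groups did not overlap, with a difference of 0.31 ± 0.07 SE, or 1.24-fold (limma adjusted p = 0.210). Mertk, a receptor by which phagocytes and astrocytes take up dying cells, had levels of 8.55, 8.47, 8.23, 8.43 and 8.24 in tumour-bearing mice, against 8.21, 8.11 and 8.12 in controls. Mice 3 and 5 were barely above the highest control, and the difference was 0.24 ± 0.08 SE. Htra1, a secreted protease, had levels of 9.10, 8.70, 8.70, 8.73 and 8.70 in tumour-bearing mice, against 8.48, 8.59 and 8.57 in controls. Mouse 1 stood apart from 4 almost equal mice, and the difference was 0.24 ± 0.09 SE, or 0.16 without mouse 1. Arrdc2, an arrestin-domain protein gene, had levels of 6.28, 5.70, 5.40, 5.79 and 5.98 in tumour-bearing mice, against 5.48, 5.41 and 5.29 in controls. Mouse 3 lay among the controls, and the difference was 0.44 ± 0.17 SE (limma adjusted p = 0.418). Rhob, a small GTPase, and Lyst, a protein of lysosome trafficking, each differed by 0.02. Edn1, the vasoconstrictor endothelin 1, was below 4.32 in 4 of 5 tumour-bearing and 3 of 3 control mice and had no difference to report.

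**Figure D2:**
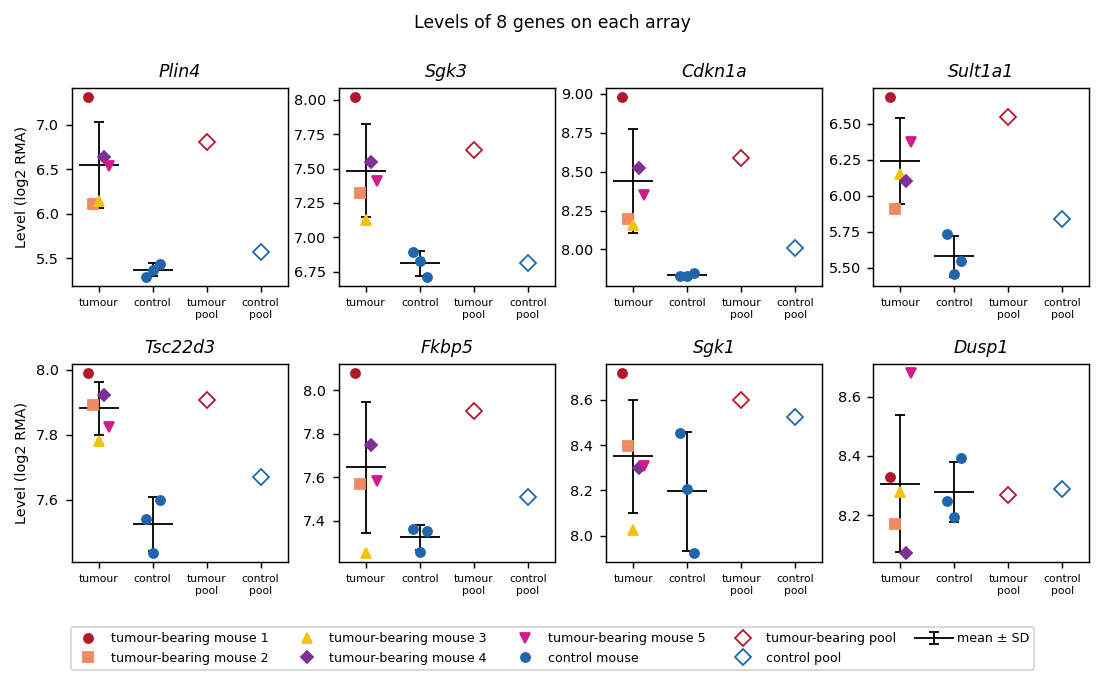
Log2 RMA levels of 8 of the genes on each array, with the tumour-bearing mice left of the controls, then both pools as open diamonds; black bars are the mean ± SD of 5 tumour-bearing and 3 control mice, and each panel has its own y axis that does not start at 0. Plin4, Sgk3, Cdkn1a, Sult1a1 and Tsc22d3 have no overlap between the groups, while Fkbp5, Sgk1 and Dusp1 overlap.

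The genes also ordered the tumour-bearing mice in much the same way. Mouse 1 had the highest level of its group in 25 of 31 members, against 23.8% of all genes tested, and mouse 3 the lowest in 19 of 31, against 19.8% of all genes. Both held for 17 members (54.8%), against 7.40% of all genes. The order appeared in 8 of the 14 members with an unadjusted p under 0.05 and in 9 of the other 17, where the groups differed less. The median of the members, each taken relative to its control mean, was 0.52 in mouse 1, 0.16 in mouse 2, 0.07 in mouse 3, 0.24 in mouse 4 and 0.18 in mouse 5. Over all genes tested the same median lay between -0.02 and -0.003 in these mice, and over the members between -0.01 and 0.01 in the 3 controls. As the levels are relative to the mean of these same controls, control medians near 0 are largely built in. All 31 members were above the control mean in mouse 1, and 23 in mouse 3. The SD over the tumour-bearing mice had a median of 0.20 over the members, against 0.10 over the controls, while over all genes it was 0.09 in both. Members measured in 1 animal share that animal's RNA, so these counts describe 5 mice and carry no test. Mouse 3 also had the lowest midbrain marker score (-0.88) and the highest pituitary score (1.61) of the tumour-bearing mice, while mouse 1 had the lowest pituitary score (-0.53) of that group, each score being the mean centred log2 level. Mouse 4 had nearly the same pituitary score as mouse 3 (1.57), with a member median of 0.24. Mouse 2 had the highest midbrain score of the group (0.21), with a member median of 0.16, and mouse 1 had one of -0.36. The part of these scores in the order was not tested.

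**Figure D3:**
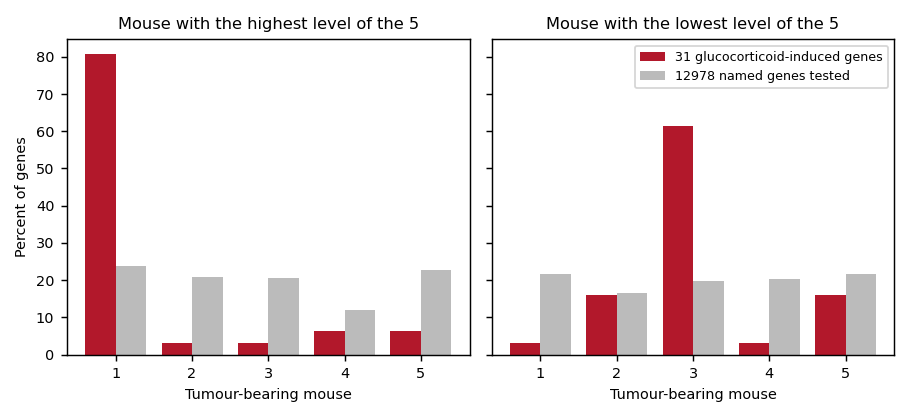
Percent of genes (y axis) for which each of the 5 tumour-bearing mice had the highest (left) or lowest (right) level of its group, for the 31 glucocorticoid-induced genes (red) and for 12978 named genes (grey). Mouse 1 was highest in 25 of 31 and mouse 3 lowest in 19 of 31, where the grey bars lie between 11.9% and 23.8%.

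The pooled arrays gave similar differences, as values without replicates. The tumour-bearing pool was above the control pool for 27 of the 31 tested members, against 47.3% of all genes, with a median difference of 0.30, against -0.01. Past 1.2-fold there were 17 members higher and 0 lower, against 4.48% and 5.02% of all genes. Plin4 differed by 1.24 between the pools, Sgk3 by 0.83, Sult1a1 by 0.71, Hif3a by 0.67 and Map3k6 by 0.65. Nfil3 and Errfi1 both differed by -0.24. As the pools may hold the same animals, they are not a second sample of the groups.

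**Figure D4:**
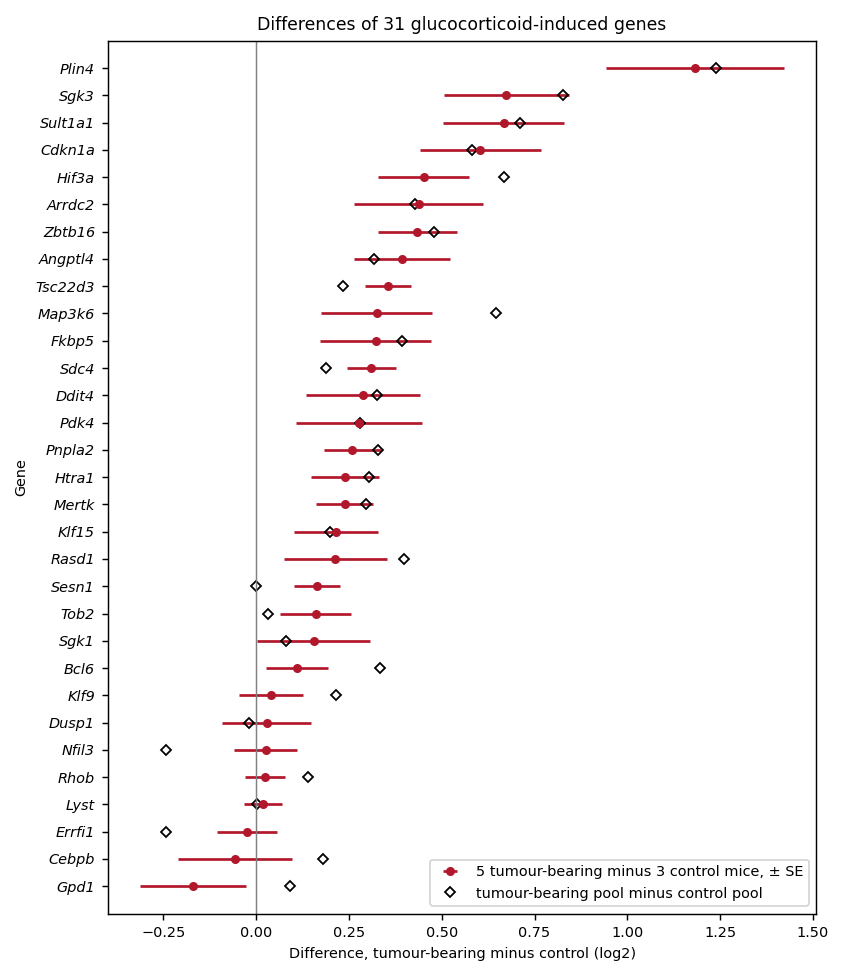
Difference between tumour-bearing and control mice (log2, x axis) for the 31 tested genes, as limma's estimate ± SE from 5 tumour-bearing and 3 control mice (red) and as the tumour-bearing minus the control pool (open diamonds). Both are above 0 for most genes and largest for Plin4, at 1.18 in the individual mice and 1.24 in the pools.

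Genes that deliver or receive the hormone had a median difference near 0. Of 21 listed genes of receptors, chaperones and hormone supply, 17 were tested and 0 were called, and the median difference was -0.05. At an unadjusted limma p under 0.05, 1 was higher and 4 were lower. Of all genes tested, 3.78% were higher and 6.51% lower at that p, and 0.0771% were called higher and 0% lower. Nr3c1, the glucocorticoid receptor, had levels of 7.86, 7.85, 7.86, 7.79 and 7.79 in tumour-bearing mice, against 7.91, 7.69 and 7.82 in controls. The tumour-bearing mice all lay within the range of the controls (difference 0.02 ± 0.06 SE). Nr3c2, the mineralocorticoid receptor that binds the same hormone, had levels of 6.85, 6.78, 6.56, 6.62 and 6.46 in tumour-bearing mice, against 6.996, 6.73 and 6.82 in controls. Mice 3, 4 and 5 lay below all controls and the other 2 among them. The difference was -0.20 ± 0.10 SE (limma adjusted p = 0.535), and it was -0.12 without control 1, -0.12 with the replicate block and -0.0045 with the oligodendrocyte covariate.

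Hsd11b1, the enzyme that regenerates active hormone inside cells, had levels of 4.81, 5.04, 5.00, 4.64 and 5.07 in tumour-bearing mice, against 5.37, 5.32 and 5.44 in controls. All tumour-bearing mice lay below all controls, by -0.47 ± 0.12 SE (limma adjusted p = 0.277). The other 3 lower genes, named after their values were seen, were the chaperones Hsp90aa1 (-0.08) and Hspa8 (-0.08) and the receptor gene Crhr1 (-0.31). Crh, which encodes corticotropin-releasing hormone, had levels of 4.19, 3.53, 3.70, 3.95 and 4.06 in tumour-bearing mice, against 3.23, 3.35 and 3.48 in controls. All 8 were below 4.32, so no difference is given. Avp, vasopressin, which acts with it on the pituitary, had levels of 9.46, 9.29, 9.50, 9.65 and 9.50 in tumour-bearing mice, against 8.97, 9.06 and 8.92 in controls. The groups did not overlap. It differed by 0.50 ± 0.07 SE (limma adjusted p = 0.0597), and crossed the threshold in 2 of the 21 alternatives: leaving out tumour-bearing mouse 2, where it was 0.54 (limma adjusted p = 0.0143), and the test limited to probe sets of 1 gene (limma adjusted p = 0.00564). Its adjusted p spanned 0.00564 to 0.9995 over the alternatives. Over all genes tested, those 2 alternatives called 24 and 39 higher and 29 lower each, against 10 and 0 in the main test.

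Of 20 further genes that respond to glucocorticoids, 19 were tested and 2 rose past the threshold, with a median difference of 0.18. At an unadjusted limma p under 0.05, 8 were higher and 0 lower. Of all genes tested, 0.0771% were called higher, and 3.78% were higher and 6.51% lower at that unadjusted p. The 2 called genes were Lcn2, the acute-phase protein lipocalin 2, which cytokines also induce, and Mfsd2a, a lipid transporter of brain vessels. Lcn2 had levels of 7.25, 6.40, 7.51, 7.48 and 6.94 in tumour-bearing mice, against 4.33, 3.77 and 4.10 in controls, 2 of them under the filter level. With those raised to 4.32 it was at least 6.92-fold higher. The test used the levels as deposited (limma adjusted p = 0.00855). Lcn2 missed the threshold without control 3 (limma adjusted p = 0.0509) and without tumour-bearing mice 3 and 4 (0.0562). It also did so with the replicate block (0.0968) and with the midbrain (0.117) or oligodendrocyte covariate (0.274). Unlike most members, Lcn2 was highest in mouse 3. Mfsd2a had levels of 9.77, 9.41, 9.62, 9.62 and 9.59 in tumour-bearing mice, against 9.02, 9.03 and 9.12 in controls. The groups did not overlap, and mouse 1 was highest. It rose by 0.55 ± 0.07 SE (limma adjusted p = 0.0361). Its call held without tumour-bearing mouse 2 and was lost without any 1 of the other 7 mice (0.0557 to 0.192). The call was also lost without the filter (0.0663), without the intensity trend (0.120) and with the replicate block (0.558). The same held without tumour-bearing mice 3 and 4 (0.2735) and with the midbrain (0.562) or oligodendrocyte covariate (0.9995). 

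Among the genes of that list that were not called, Fam107a, an actin-binding stress-response gene, had levels of 10.18, 9.73, 9.89, 9.97 and 10.26 in tumour-bearing mice, against 9.58, 9.36 and 9.31 in controls. The groups did not overlap. The difference was 0.59 ± 0.12 SE (limma adjusted p = 0.189), and it was 0.38 with the midbrain and 0.33 with the oligodendrocyte covariate. It was called without tumour-bearing mouse 2, at 0.66 (limma adjusted p = 0.0496), and with the test limited to probe sets of 1 gene (limma adjusted p = 0.0294). These are the alternatives whose calls over all genes are given with Avp. The adjusted p of Fam107a spanned 0.0294 to 0.9995 over the alternatives. Mt1, a metal-binding metallothionein, had levels of 10.88, 10.73, 10.82, 10.81 and 10.87 in tumour-bearing mice, against 10.66, 10.63 and 10.58 in controls. Mt2, its neighbour in the same family, had levels of 12.12, 12.16, 12.07, 12.19 and 12.12 in tumour-bearing mice, against 12.00, 11.95 and 11.92 in controls. Neither gene had overlap between the groups. Mt1 differed by 0.20 ± 0.04 SE (limma adjusted p = 0.207), and by 0.13 with the midbrain and 0.12 with the oligodendrocyte covariate. Mt2 differed by 0.18 ± 0.04 SE (limma adjusted p = 0.189).

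The members were also fitted with the oligodendrocyte or the midbrain marker score as a covariate. A further fit left out tumour-bearing mice 3 and 4, which had pituitary transcripts. The part of the hypothalamic, pericyte and neuron markers, whose values are given above, was not tested. With the oligodendrocyte marker score as a covariate the median difference of the members was 0.25 and 8 had an unadjusted limma p under 0.05. This score did not overlap between the groups, at -0.50 to 0.21 in tumour-bearing and 0.24 to 0.33 in control mice. The fit can therefore hardly separate score and group, and its counts and adjusted p do not measure the part of these cells. With the midbrain score the median difference was 0.26 and the count 9. Without tumour-bearing mice 3 and 4 the median difference was 0.28 and the count 16. Mouse 3 was also the lowest of its group in 19 of 31 members. The covariates moved single members both ways: with the oligodendrocyte score the difference was 0.74 for Zbtb16, 0.41 for Mertk, 0.40 for Sult1a1 0.17 for Ddit4 and 0.15 for Pnpla2, and with the midbrain score it was 0.70 for Angptl4, 0.68 for Map3k6, 0.42 for Sult1a1 and 0.094 for Pdk4. Alas2, the erythroid marker and the 1 of 5 listed blood markers with a probe set, was 1.41 higher on the log2 scale in tumour-bearing mice; its part in the results was not tested.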

How the data were processed

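RNA of the hypothalamus was hybridised to 1 array per sample. The deposited values are log2 expression levels; the submitters' processing notes name RMA as the authors' method, but its version and whether all 10 arrays were processed together are not given in the sources used here, and the log2 scale was inferred from the range of values. RMA gives the arrays a common distribution and compresses folds. Of 35556 probe sets a platform annotation paired 21218 with 1 gene and 1881 with several; 12457 are unnamed here. Updating symbols through RefSeq of GRCm38.p6 changed 0.

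The 22837 probe sets with a level above 20 (4.32 in log2) on 3 or more of the individual arrays entered the test with limma 3.58.1 in R 4.3.3 (intensity trend, Benjamini-Hochberg over all of them, threshold 0.05). The gene step was tested on simulated data. Members and lists were chosen with earlier results of these data known. Values on every array are given for members with an unadjusted p under 0.05 and for Fkbp5, Sgk1, Klf9 and Dusp1; of the 2 pathway lists, for Nr3c1, Nr3c2, Hsd11b1, Crh, called genes and the next 4 by p. Alternatives were the filter, variance model, array weights (statmod 1.5.0), normalization, replicate block, pools as samples, marker covariates and left-out animals. Same-numbered mice did not deviate together (correlations of -0.002, 0.0084 and 0.0089). Figures used matplotlib 3.10.9.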

Additional observations from a re-analysis of the deposited data

Results flagged for a closer look

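In 5 of the 31 members 1 tumour-bearing mouse stood apart from the other 4, its gap to the nearest of them being a larger share of the group's range than Dixon's test at 95% allows. That is 16.1% of the members, against 794 of all 12978 genes tested (6.12%); the test's nominal rate by chance is about 1 in 20 groups. The members share the same 5 mice, and no excess was tested. Mouse 1 was the high one in 3 of them: Htra1 was 9.10 there and at most 8.73 in the others, Rasd1 was 6.83 and at most 6.33, and Sesn1 was 8.29 and at most 8.17. Angptl4 was low in mouse 3, at 5.06, with 5.43 or more in the others. Nfil3 was high in mouse 5, at 5.83, with 5.66 or less in the others. The groups of 3 controls were not checked in this way.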

How the results depend on the processing

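Across the 21 alternatives the count of members called was 0 in both directions, except 2 higher (Tsc22d3 and Plin4) with the test limited to probe sets of 1 gene. That setting called 39 of all 12978 genes tested higher and 29 lower, against 10 and 0 in the main test. Without tumour-bearing mouse 2 the calls over all genes were 24 higher and 29 lower. The median difference of the members had its lowest value, 0.17, without tumour-bearing mouse 1, and its highest, 0.28, when tumour-bearing mice 3 and 4 were left out. The count at an unadjusted p under 0.05 was 12 to 18 with 1 mouse left out, 9 with the midbrain and 8 with the oligodendrocyte covariate. The replicate number as a block gave 13 such members, a median of 0.275 and 0 calls; as same-numbered mice share only a number, no pairing is read from it. Of the single member differences under these alternatives 33 changed sign, all in 8 genes with differences in the full data of -0.17 to 0.04, and 616 kept sign and side of the threshold. The receptor and supply genes had 1 call with only probe sets of 1 gene and 0 to 1 with 1 mouse left out, and a median of -0.016 without the filter. The other responsive genes had 1 call without a filter, with all 8 arrays above it or without the intensity trend, 0 with the block, without mice 3 and 4 or with either covariate, and 0 to 3 with 1 mouse left out; their median was 0.12 with the oligodendrocyte covariate and 0.13 to 0.22 with 1 mouse left out.

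Sign changes by setting were as follows. Array weights gave 0.0022 for Errfi1, -0.0045 for Rhob and -0.0081 for Nfil3. The block gave -0.018 for Dusp1, 0.012 for Errfi1 and -0.0081 for Nfil3. Pools as samples gave -0.031 for Nfil3 and -0.0053 for Nr3c1. Leaving out tumour-bearing mice 3 and 4 gave 0.016 for Errfi1 and 0.10 for Cebpb. The midbrain covariate gave -0.022 for Dusp1, 0.037 for Errfi1, 0.049 for Cebpb, -0.025 for Lyst, 0.066 for Gpd1 and -0.066 for Nr3c1. The oligodendrocyte covariate gave -0.29 for Dusp1, 0.17 for Errfi1, 0.054 for Cebpb, -0.045 for Rhob and -0.055 for Nfil3. With 1 mouse left out the ranges were -0.066 to 0.020 for Errfi1, -0.12 to 0.026 for Cebpb, -0.065 to 0.087 for Dusp1, -0.015 to 0.098 for Klf9, -0.012 to 0.066 for Nfil3, -0.018 to 0.046 for Lyst, -0.0065 to 0.044 for Rhob and -0.036 to 0.074 for Nr3c1. The cause of these changes was not tested.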

Other observations

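Other lists shared the mouse order of the glucocorticoid-induced genes in part at most. Of all genes tested, each tumour-bearing mouse was highest in 11.9% to 23.8% and lowest in 16.5% to 21.7%. Among the 19 other glucocorticoid-responsive genes mouse 1 was again most often highest, in 7. Mouse 2 was lowest in 9 of these and mouse 3 in 5. Among the 17 tested genes of receptors, chaperones and hormone supply mouse 1 was also most often highest, in 6, and mouse 5 lowest in 6. Among 7 oligodendrocyte markers mouse 2 was highest in 6 and mouse 5 lowest in 6. All 6 tested midbrain markers were highest in mouse 2, and 5 of them were lowest in mouse 3. Of 10 hypothalamic markers mouse 3 was highest in 5 and mouse 2 lowest in 7. These are counts over genes of the same 5 animals and were not tested.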
